A study of Caenorhabditis elegans with 2 samples.

Results

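The pqn and abu genes of the nematode Caenorhabditis elegans were taken by name: every gene called pqn or abu with a number, with the counts of its isoforms added up. This gave 72 of the 45510 genes counted in both libraries, 57 pqn and 15 abu genes. The protein-coding lines of the count tables give a gene identifier and no locus name, so names were looked up by identifier. Of the 72 names, 70 came from the Ensembl 115 annotation of the WBcel235 genome and 2, pqn-11 and abu-3, from RefSeq, and these 2 are annotated as pseudogenes. Genes that once had a pqn name and now have another are not included.

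The pqn genes are named for prion-like stretches rich in glutamine and asparagine. That name describes protein composition and covers genes of unlike function. The abu genes are named for being activated when the unfolded protein response of the endoplasmic reticulum is blocked, and a related group of abu and pqn genes encodes small repeat proteins of the pharyngeal cuticle. NRDE-3 is an Argonaute protein that binds secondary small RNAs made antisense to a transcript and carries them into the nucleus of somatic cells, where they reduce transcription of the matching gene.

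Small RNAs that co-eluted with tagged NRDE-3 from embryo lysates were sequenced in 2 libraries, both from animals with the 3xflag::gfp::nrde-3 transgene kept at 20 °C. One, called wild type, was made from embryos of N2 animals grown on OP50. The other, called RNAi, was made from embryos of eri-1(mg366);dpy-13(e458) animals grown on bacteria for dpy-13 RNAi; eri-1 encodes an exonuclease that limits RNA interference, and dpy-13 encodes a cuticle collagen. Each condition had 1 library and no replicate, so no test of the conditions and no p-value is given, and the effects of strain, feeding and library making cannot be told apart. The labels do not say how the transgene was inserted or whether the embryos of several cultures were pooled. Below, "after RNAi" means in the RNAi library. Counts said to go from one value to another are those of the wild-type and then the RNAi library, which are of unlike strains.

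Counted reads numbered 7693320 for wild type and 5537671 for RNAi. Levels are reads per 1000000 counted reads of both strands (RPM), and ratios are the RNAi over the wild-type library with an exact 95% interval that covers counting error only. The targeted gene dpy-13 had 1 antisense read in wild type and 115 after RNAi, with a ratio of 160 (28.1 to 6365). The mir-35 microRNA family, which marks embryos, had 2546 and 12571 sense reads, a summed ratio of 6.86 (6.57 to 7.16). All 8 of its genes had sense reads in both libraries, mir-41 with 1 in each. Over its 7 genes with 10 or more sense reads the median ratio was 3.54, beside 2.89 over all such genes. Antisense levels were higher in the RNAi library for most genes: over the 5751 genes with 10 or more antisense reads in both libraries together, called measured here, the median log2 ratio was 3.58, or 11.9-fold, and 95.1% had a ratio above 1. Values of the pqn and abu genes are therefore set beside this median.

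The pqn genes had few antisense reads in the wild-type library and more in the RNAi library. Summed over the 57 genes there were 83 wild-type and 884 RNAi antisense reads. As levels these were 10.8 and 160 RPM, which gave a ratio of 14.8 (11.8 to 18.8). The same sum over all protein-coding genes gave a ratio of 0.653 (0.651 to 0.656), while the 11.9-fold median is taken per gene. Such a sum is weighted towards the genes with most reads. In the RNAi library unc-119 alone gave 98201 of its 387872 antisense reads. With trimmed-mean (TMM) scaling, which brings the median log2 ratio of all measured genes to 0.38, the summed pqn ratio was 1.61. In the RNAi library 27 pqn genes had an antisense read and in the wild-type library 19, while 29 had none in either. By share, 33.3% and 47.4% of pqn genes had an antisense read in the wild-type and the RNAi library, against 31.0% and 51.2% of the 20535 protein-coding genes.

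Of the 57 pqn genes 16 were measured, 12 had 1 to 9 antisense reads in all, and 29 had 0. Of the 16, only pqn-41 had 10 reads in the wild-type library alone, so the others reached the minimum only with the reads of the RNAi library, a selection that favours high ratios. All 16 had a log2 ratio above 0, or 12 of 16 with TMM scaling, and in 15 of 16 the interval of the ratio lay above 1, as in 91.8% of all measured genes. The median log2 ratio of the 16 was 4.17, beside 3.58 over all measured genes, and among the 15 with a wild-type read it ranged from 0.47 for pqn-27 to 5.31 for pqn-59. With genes that had no wild-type read set at 3 reads, the limit that a count of 0 allows, the medians were 4.15 and 3.47.

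The pqn genes with most antisense reads in the RNAi library met a rule of size. It asked for a ratio of at least 4, an interval wholly beyond 2-fold, and at least 10 RPM in whichever library was higher. It was met with more reads after RNAi by 7 of the 16 measured pqn genes, pqn-41, pqn-51, pqn-59, pqn-65, pqn-83, pqn-87 and pqn-96, against 18.6% of all measured genes. With fewer reads after RNAi 0 of 16 met it, against 2.63%. The first share depended on the minimum level and on the scaling: 11 pqn genes met the rule with a minimum of 5 RPM, against 37.6% of all measured genes, and 0 did with TMM scaling, against 0.156%. The genes nearest to the minimum were pqn-96 at 11.7 RPM in the RNAi library inside it and pqn-39 at 9.57 outside it.

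The gene pqn-51 (chromosome V, 5049607 to 5052214, plus strand, WBcel235) had 7 wild-type and 134 RNAi antisense reads, the most of any pqn gene after RNAi. Its level went from 0.910 to 24.2 RPM, a ratio of 26.6 (12.6 to 67.4). Antisense reads made up 24.1% of its reads in wild type and 80.2% after RNAi. Its sense reads went from 22 to 33, a ratio of 2.08 (1.18 to 3.75), so antisense and sense reads did not differ by the same factor between the libraries.

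The short gene pqn-96 (chromosome III, 8438374 to 8439412, minus strand) has 673 exon bases in the annotation and went from 4 to 65 antisense reads, a ratio of 22.6 (8.41 to 85.3). Per kilobase of exon, the scale on which genes can be compared, it had the highest antisense level of the pqn genes in both libraries, at 0.773 RPM per kb in the wild type (0.210 to 1.98) and 17.4 in the RNAi library (13.5 to 22.2, exact Poisson interval). The wild-type level rests on 4 reads, and its interval holds those of pqn-41 (0.372 to 0.798) and pqn-51 (0.223 to 1.14), both at 0.555. Next after pqn-96 in the RNAi library was pqn-51 at 14.8 RPM per kb (12.4 to 17.5), and these 2 intervals overlap. In the RNAi library 329 protein-coding genes had a higher antisense level per kb than pqn-96, or 1.63% of those with an annotated exon length, and 391 had a higher level than pqn-51. The sense reads of pqn-96 numbered 18 and 15.

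pqn-59 (chromosome I, 379071 to 381902, minus strand) encodes the nematode counterpart of the human stress granule proteins UBAP2 and UBAP2L. Its antisense reads went from 2 to 71, a ratio of 49.3 (13.2 to 415), the highest ratio of a pqn gene with a read in both libraries. It also had the most sense reads of all 72 genes, 314 and 444, at 17.6 and 34.7 RPM per kb. Antisense reads were thus only 0.633% of its reads in wild type and 13.8% after RNAi.

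pqn-41 (chromosome III, 1905958 to 1939570, plus strand) encodes a glutamine-rich protein required for the death of the linker cell, a cell of the developing male gonad. It had 29 antisense reads in the wild-type library, 34.9% of the pqn total there, and 92 in the RNAi library, a ratio of 4.41 (2.88 to 6.94). Among the 7 genes that met the size rule it had the lowest ratio, and its log2 ratio of 2.12 minus the all-gene median was -1.46. With TMM scaling its log2 ratio was below 0, as were those of pqn-15, pqn-27 and pqn-53. Without pqn-41, a setting chosen after its values were seen, the summed pqn ratio was 20.4 (15.5 to 27.4).

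Among the other 3 genes that met the rule, pqn-83 (chromosome III, 13087475 to 13099461, minus strand) went from 3 to 80 antisense reads, a ratio of 37.05 (12.2 to 183). pqn-65 (chromosome X, 4610911 to 4619635, minus strand) went from 5 to 97, a ratio of 26.95 (11.2 to 84.9). pqn-87 (chromosome II, 12209095 to 12225086, minus strand) went from 7 to 84, a ratio of 16.7 (7.75 to 42.7). All 3 had under 10 antisense reads in the wild-type library. pqn-65 and pqn-87 are long genes with 6509 and 5405 exon bases, and per kb they had 2.69 and 2.81 RPM in the RNAi library, below the 7.75 of pqn-83.

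Below the rule of size, pqn-39 went from 2 to 53 antisense reads, a ratio of 36.8 (9.70 to 312). pqn-21 went from 3 to 49, pqn-80 from 3 to 41, pqn-70 from 3 to 30, pqn-20 from 2 to 20, pqn-53 from 2 to 14 and pqn-15 from 2 to 10. pqn-82 had 0 and 15, at least 6.95-fold higher with the wild type at its limit of 3 reads. That value leaves out the counting error of the 15 reads, and the exact interval of the ratio has a lower bound of 4.98. All 8 of these genes had 3 wild-type antisense reads or fewer, and their intervals are wide. By level per kb in the RNAi library the order of the leading genes was pqn-96, pqn-51, pqn-83, pqn-59, pqn-39 and pqn-82, followed by pqn-87, pqn-21, pqn-65, pqn-70 and pqn-41 at 2.45 to 2.81 RPM per kb. Each neighbour in that order overlapped the next in its interval except pqn-51 and pqn-83.

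**Figure D1:**
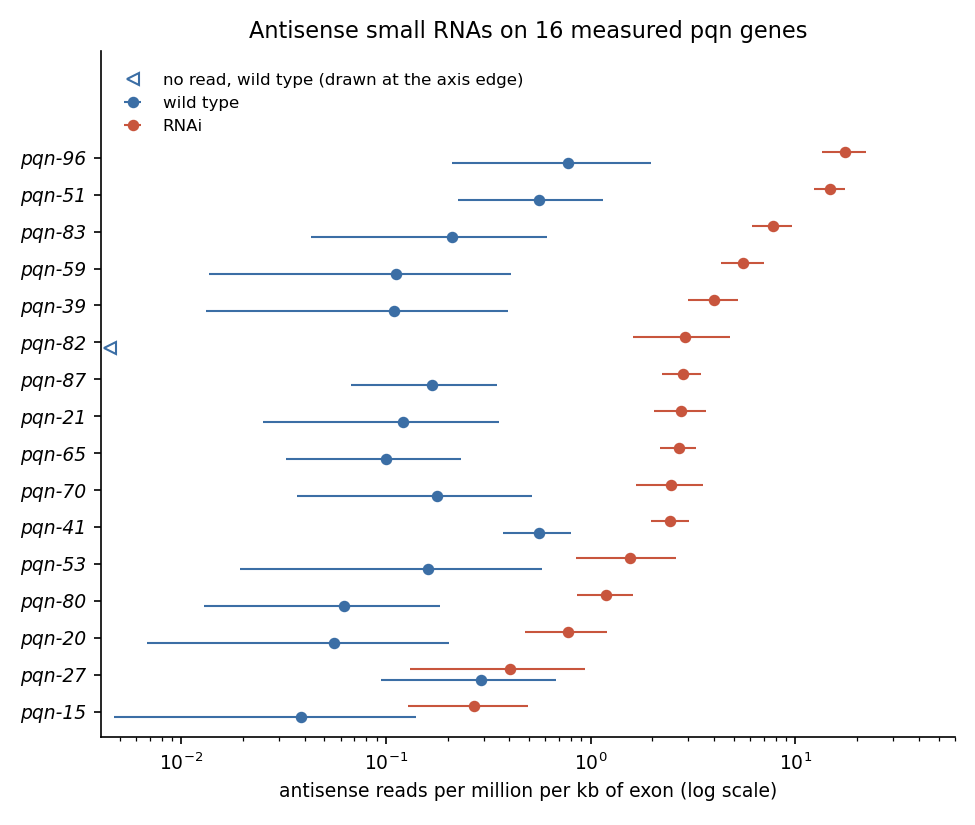
Antisense RPM per kilobase of exon (log axis) for the 16 measured pqn genes in the wild-type and the RNAi library, 1 library each, with exact 95% Poisson intervals that cover counting error only; an open triangle at the axis edge stands for no read. In the RNAi library the genes run from 0.268 for pqn-15 to 17.4 for pqn-96, and for pqn-15 and pqn-27 the intervals of the libraries overlap.

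pqn-27 (chromosome II, 13448835 to 13460642, minus strand) had 5 antisense reads in each library, a ratio of 1.39 (0.320 to 6.04). It was the only measured pqn gene whose interval included equal levels, and its log2 ratio minus the all-gene median was -3.104. The gene E01G4.5 starts 11758 bases beyond its end by coordinate and is a target of the small RNAs bound by the Argonaute ERGO-1. E01G4.5 had 95885 wild-type and 39 RNAi antisense reads. Whether it bears on the reads of pqn-27 was not tested, and such a neighbour was looked at for pqn-27 alone. The sense reads of pqn-27 numbered 42 and 85.

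**Figure D2:**
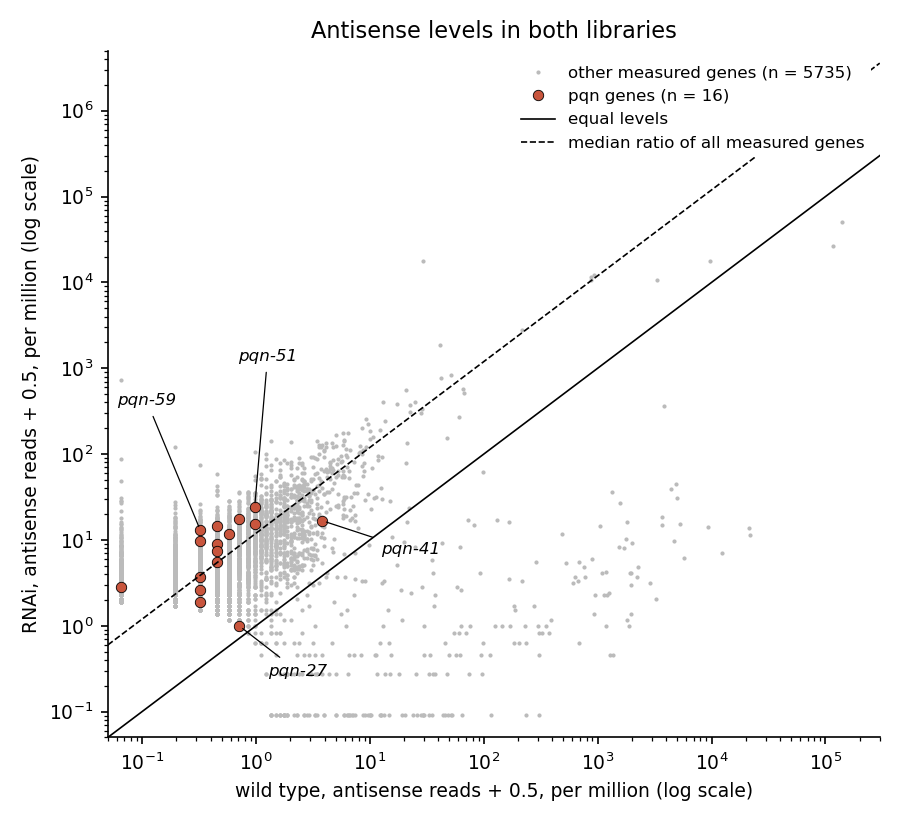
Antisense reads plus 0.5 per 1000000 counted reads in the wild-type (x) and the RNAi library (y), log axes, for the 16 measured pqn genes and the other 5735 measured genes, 1 library each; the solid line marks equal levels and the dashed line the median ratio of 11.9. The pqn genes lie among the bulk of genes, pqn-41 below the dashed line and pqn-27 near equal levels.

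The abu genes had almost no antisense reads in either library. Over the 15 genes 3 were counted in wild type and 2 after RNAi, which is 0.390 and 0.361 RPM. Both counts are at or under the limit of 3 reads that a count of 0 allows, so no ratio is given, and 0 of the 15 genes were measured. In the wild-type library abu-8 had 2 antisense reads and abu-6 had 1, and in the RNAi library abu-7 and abu-8 had 1 each. The other 12 abu genes had 0 in both, against 46.0% of protein-coding genes without an antisense read in either library. Of these 12 genes 5 had no read of either strand and 7 had sense reads only.

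Sense reads on abu genes were found in both libraries. They numbered 91 and 121 over the 15 genes, or 11.8 and 21.9 RPM. abu-14 (chromosome II, 9225186 to 9227214, minus strand) had 43 sense reads in each library, abu-13 (chromosome III, 6941888 to 6945898, minus strand) had 8 and 22, and abu-8 (chromosome V, 5192995 to 5194608, minus strand) had 7 and 20. With sense reads in both libraries abu-14 and abu-13 still had 0 antisense reads. Of all reads on abu genes 3.19% were antisense in the wild-type library (Wilson 95% interval 1.09 to 8.97) and 1.63% in the RNAi library (0.447 to 5.74). For pqn genes the share was 5.34% (4.33 to 6.57) and 26.8% (25.3 to 28.4). Over all protein-coding genes together it was higher in both libraries, at 76.6% and 46.9%. That pooled share is weighted towards the genes with most reads. In the RNAi library unc-119 alone gave 98201 of the 387872 antisense reads, while 46.0% of protein-coding genes had none in either library. The intervals of the pqn and abu shares overlapped in wild type and were apart after RNAi.

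**Figure D3:**
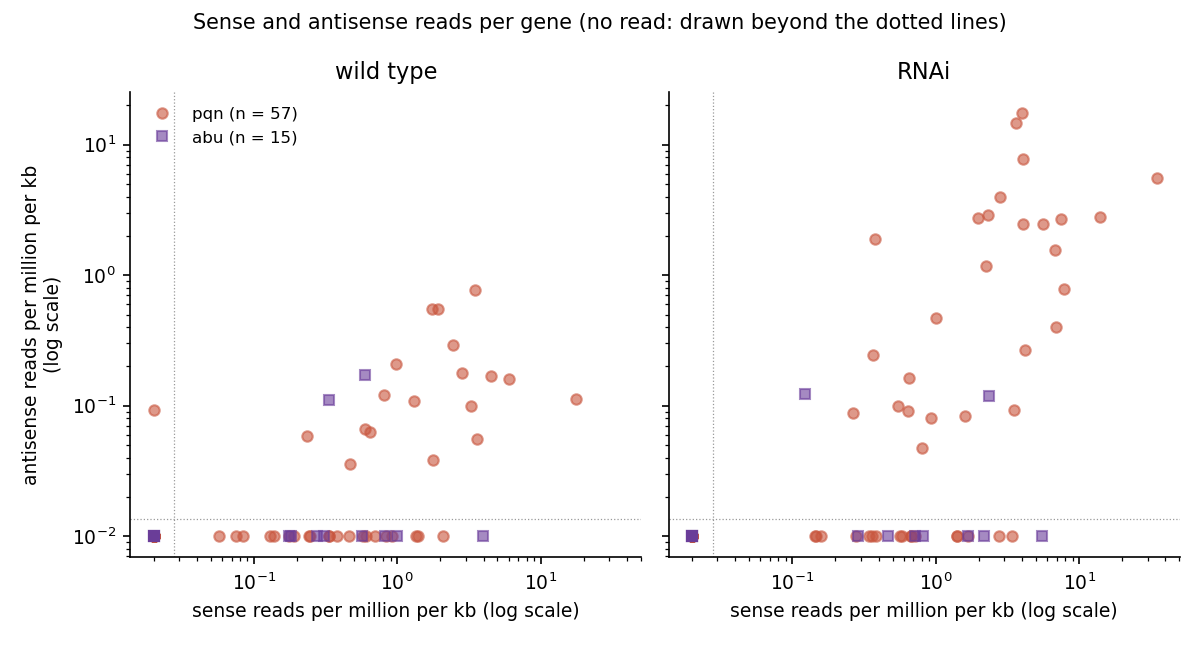
Sense (x) against antisense (y) RPM per kilobase of exon, log axes, for the 57 pqn and 15 abu genes in the wild-type and the RNAi library; genes without a read are drawn beyond the dotted lines. In the RNAi library pqn genes reach 17.4 antisense RPM per kb, while the 2 abu genes with an antisense read, at 1 read each, stay near 0.12.

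By median, the abu genes are shorter and have fewer exons than the measured pqn genes. Single genes overlap in length, at 981 to 2872 exon bases in abu and 673 to 6786 in measured pqn genes. The median exon length was 1295 bases in abu genes and 1864 in pqn genes, and it was 2351 in the 16 measured pqn genes and 1484 in the other 41. The median number of separate exons was 2 in abu genes, 8 in the measured pqn genes and 6 in the other pqn genes. A longer gene can collect more reads, and levels per kb divide by exon length. Per kb the summed antisense level of the pqn genes in the RNAi library was 1.28 RPM, that of the abu genes 0.0169. The top 5 pqn genes held 55.1% of the pqn antisense reads there, and 29 of the 57 pqn genes had none in either library. Summed sense levels per kb in the RNAi library were 3.48 RPM for pqn and 1.02 for abu genes. The median sense level per gene there was 4.12 RPM per kb in the 16 measured pqn genes. It was 0.365 in the other 41 pqn genes and 0.287 in the abu genes. Whether gene length or sense level bears on the antisense difference was not tested.

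Many abu genes lie close to one another or to pqn genes. Members within 50000 bases of each other formed 7 clusters with 18 genes, and 4 clusters with 12 genes, of which 5 are pqn genes, included an abu gene. These 12 genes had 3 and 2 antisense and 18 and 26 sense reads in all, in the wild-type and the RNAi library. The 5 pqn genes of these clusters had no antisense read: pqn-2 beside abu-1 on chromosome V, pqn-57 beside abu-9 on chromosome X, and pqn-76, pqn-78 and pqn-79 beside abu-5 on chromosome IV. The cluster on chromosome IV (15579086 to 15596645) holds 4 genes that each span 1076 bases and had 0 reads of either strand. Reads from near-identical copies cannot be assigned to a single gene, and no gene sequences were used here, so how alike these copies are was not measured.

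Sense reads on pqn genes were more numerous than antisense reads in both libraries. There were 1471 in wild type and 2412 after RNAi, at 191 and 436 RPM. The summed sense ratio was 2.28 (2.13 to 2.43) for pqn genes and 1.85 (1.40 to 2.45) for abu genes, but with TMM scaling these were 0.832 and 0.674, on the other side of equal levels. All protein-coding genes together had a sense ratio of 2.42 (2.41 to 2.44). The interval of the sense ratio lay above 1 for 19 of 29 pqn and 3 of 6 abu genes with 10 or more sense reads, against 69.3% of all such genes. Of the 29 pqn genes 0 met the size rule in either direction, against 7.54% of all such genes in the higher and 0.263% in the lower direction. The median sense log2 ratio was 1.19 for these 29 and 1.30 for 6 abu genes, below the 1.53 of all 7591 such genes.

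Genes with many sense reads were not always those with many antisense reads. After pqn-59, the highest sense counts were those of pqn-87 with 189 and 420, pqn-65 with 164 and 269, and pqn-20 with 129 and 202. pqn-20 had an antisense share of only 9.01% in the RNAi library, and pqn-73 (20 and 53 sense reads) and pqn-74 (24 and 23) had 0 antisense reads in both libraries. At the other end, 7 pqn genes had more antisense than sense reads in the RNAi library, pqn-21, pqn-39, pqn-51, pqn-68, pqn-82, pqn-83 and pqn-96, and 1 did in wild type, pqn-11, with a single antisense read. Across the 57 genes the levels per kb of both strands had a Spearman correlation of 0.67 in the wild-type and 0.74 in the RNAi library. The genes share a library and an exon length used for both values, and many have no reads, so this is only a description.

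Exons of another gene on the opposite strand overlap 12 pqn and 6 abu genes, and reads from such a partner cannot be told from antisense reads. Only 3 of the 16 measured genes were among them. The overlap covered 1.97% of the exon bases of pqn-39, 1.33% of pqn-87 and 0.368% of pqn-41. Their partners had few sense reads: F48F7.3 and F53A3.1 had 0 in both libraries, and aqp-12 had 1 and 3.

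Genes related to these families by role or structure were set beside them. In the unfolded protein response list 16 of 17 genes were measured, with a summed antisense ratio of 11.2 (8.54 to 14.8) and a median log2 ratio of 3.34. Of these 16 genes 1 met the size rule, or 6.25%, against 18.6% of all measured genes. It was the chaperone gene dnj-7, with 8 and 112 antisense reads. Next by antisense reads were pdi-2 with 9 and 52 and hsp-3, a BiP chaperone of the endoplasmic reticulum, with 8 and 46. The sensor gene ire-1, with 0 and 23, had the highest log2 ratio of the list, 6.03. Of 21 pharynx genes 2 were measured, chs-2, a chitin synthase gene, with 4 and 24 antisense reads and pha-4, the pharyngeal organ selector, with 7 and 18. Of these 2 genes 0 met the size rule, against 18.6% of all measured genes. In the pharynx list 13 of 21 genes had no antisense read in either library, or 61.9%, against 46.0% of protein-coding genes. Among those 13 were the pharyngeal myosin genes myo-1, with 39 and 132 sense reads, and myo-2, with 42 and 152. Also among them were nas-6, phat-3 and phat-6, the 3 pharynx genes without a sense read in either library.

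Of 18 genes of the apical matrix other than collagens 5 were measured, with a summed antisense ratio of 7.41 (4.76 to 11.99) over the 18. Of these 5 genes 0 met the size rule, against 18.6% of all measured genes. In the RNAi library 5.57% of the reads on the 18 genes were antisense (4.70 to 6.58). That interval overlaps the one of the abu genes, 0.447 to 5.74, and for the pharynx list the share was 8.27%. noah-2, which encodes a matrix protein of the embryonic epidermis, had 1 and 48 antisense reads. For mlt-11 these were 12 and 19, for sym-1 4 and 18, and for let-653, which was not measured, 5 and 0. The numbered col genes, cuticle collagens of the family to which dpy-13 belongs, had a higher summed antisense ratio than the pqn genes. They had 37 and 2294 antisense reads over 157 genes, a ratio of 86.1 (62.3 to 123), and the counting interval lies wholly above that of the pqn genes, 11.8 to 18.8. The size rule was met with more reads after RNAi by 11 of 32 measured genes, or 34.4%, against 43.8% of measured pqn genes and 18.6% of all measured genes.

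**Figure D4:**
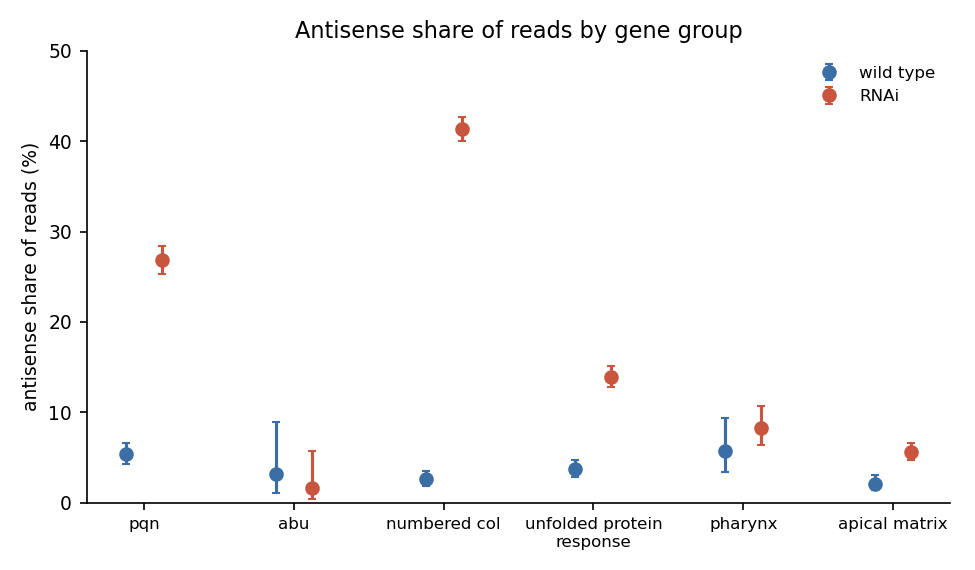
Percent of reads on each gene group that were antisense, in the wild-type and the RNAi library, with Wilson 95% intervals that cover counting error only. In the RNAi library the share was 26.8% for pqn, 41.3% for numbered col and 1.63% for abu genes (0.447 to 5.74). It was 13.9% for the unfolded protein response, 8.27% for the pharynx and 5.57% (4.70 to 6.58) for the apical matrix list. The abu and apical matrix intervals overlap. Over all protein-coding genes, which are not drawn, the pooled share was 46.9% in the RNAi library. There unc-119 alone gave 98201 of the 387872 antisense reads.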

How the data were processed

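The deposited values are raw read counts, sense and antisense, for each transcript. Per the series' design text, the aligner was Bowtie2 with default settings (version not stated) against the WS243 transcriptome. With these settings a read that fits several transcripts equally well is placed on 1 of them, so isoform counts are arbitrary splits and were added per gene. Incomplete lines, 2 in the wild-type and 3 in the RNAi table with 2 and 9 reads, were left out. Gene lengths are merged exons of Ensembl 115 (WBcel235), and 44852 of 45510 genes matched it. Log2 ratios had 0.5 added to each count. Ratio intervals are Clopper-Pearson intervals of the split of both counts, and reads without molecular identifiers are not independent molecules. TMM factors came from edgeR 4.0.16, other values from Python 3.11.15 with scipy 1.17.1. The code was tested on simulated counts. Only genes of higher antisense level than the pqn genes were changed there, and all others had equal levels. That test does not cover the pqn levels or the general shift between these libraries. Structural RNA means ribosomal, transfer, small nuclear, small nucleolar and microRNA genes. Named genes were those with the highest antisense or sense levels and those that met the size rule. Other members were named after their values were seen, where a count or a range asked for it. The genes and lists were chosen with earlier results of these data known.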

Additional observations from a re-analysis of the deposited data

How the results depend on the processing

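No paired analysis was possible because each condition had 1 library. With TMM scaling the summed pqn antisense ratio was 1.61, the median pqn log2 ratio 0.97 beside 0.38 over all measured genes, and 0 pqn genes of 9 genes in all met the size rule; the pqn and abu sense ratios crossed to 0.832 and 0.674. Per 1000000 antisense reads outside structural RNA these values were 33.3, 5.34 (4.75 over all measured genes), 15 pqn genes of 5286 in all, 5.12 and 4.15. With the largest isoform only, 3 pqn genes of 838 in all met the rule, and with 5 RPM as the minimum 11 of 2161, against 7 of 1069 as reported. These shifts follow from the altered denominator, read number or minimum. The summed pqn antisense ratio was 20.6 without members overlapped on the other strand and 20.4 without pqn-41, both chosen after seeing the data. The size rule was applied to measured genes only, and 0 abu genes were measured. No abu gene could therefore meet it under any of the 5 alternatives, so these settings do not test the abu result. No abu antisense ratio or median could be computed. The other 13 values kept their direction and lay within the interval of the reported value or within 1.5 times the count. For the median pqn log2 ratio of 4.17 that interval was 3.01 to 4.89, taken from the ranks of the 16 genes, which are not replicates. This median was 4.34 with the largest isoform only, 3.26 with 1 or more reads and 3.11 with 5 added to each count. Beside these, the medians over all genes were 3.57, 2.80 and 2.32. A count of 0 allows up to 3 reads, which is 0.390 RPM in wild type and 0.542 after RNAi.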
